A study of Homo sapiens with 33 samples.

Results

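The genes described here are 10 components of the WNT pathway in 3 head and neck squamous cell carcinoma cell lines treated with cetuximab: the ligands WNT10A, WNT4, WNT5A, WNT7A and WNT7B, the secreted inhibitors DKK1, DKK3 and SFRP1, and the pathway targets AXIN2 and LEF1. They were taken by symbol from a table of 56470 gene symbols, and all 10 were present. WNT ligands bind Frizzled receptors together with LRP co-receptors, which stops the cytoplasmic destruction complex from degrading β-catenin, so that β-catenin enters the nucleus and activates transcription with TCF/LEF factors. Secreted inhibitors act outside the cell on the ligands or on the co-receptors, and some targets, such as AXIN2, feed back to dampen the signal. In stratified epithelia the pathway is known for its part in the upkeep of basal progenitor cells, and WNT ligands of the non-canonical kind act on cell shape and movement without β-catenin.

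RNA was sequenced daily from the lines SCC25, SCC6 (full name UM-SCC-6) and SCC1 (full name UM-SCC-1), which received 100 nM cetuximab, an antibody that blocks the epidermal growth factor receptor (EGFR), or the vehicle phosphate-buffered saline (PBS). PBS libraries cover days 0 to 5 and cetuximab libraries days 1 to 5, with 1 library per line, treatment and day. In SCC6 the labels give day 2 to 2 cetuximab libraries, called 2a and 2b, and day 1 to none. All 3 are established lines for which the labels give no engineered allele, and both arms had their medium changed daily. The libraries of days 1 to 5 stand in for replicates, and nothing says that they came from independent cultures, so p-values measure the spread between these libraries and days.

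Library totals ranged from 28508758 to 80727478 estimated counts, and a level of 1 CPM, the unit of counts scaled to library size, rested on 25.9 to 74.8 counts. CPM were scaled over all 33 libraries by the trimmed mean of M values (TMM). All 9 squamous epithelial markers examined were above 1 CPM on average in every group, while PTPRC, CD3E and ITGAM, which mark blood cells, were below 1 CPM. The lines were not alike in them. In SCC6 with PBS, KRT5, KRT14 and DSG3 averaged only 2.38, 3.95 and 2.87 CPM, while KRT17, EPCAM and CDH1 averaged 552, 299 and 757. KRT5 with PBS averaged 548 CPM in SCC1 and 5359 in SCC25. CD68, a lysosomal protein used as a macrophage marker, was at 34.8 ± 11.5, 17.2 ± 0.955 and 199 ± 23.6 CPM with PBS in SCC1, SCC6 and SCC25 (SD, n = 5) and fell with cetuximab in all 3 (log2 fold changes -2.15, -1.89 and -0.32, edgeR adjusted p at most 0.0205). The squamous markers moved with the drug as well, 7 of 9 higher and 1 lower in SCC1 (median log2 fold change 1.84, with KRT5 up 5.97-fold and DSG3 4.32-fold), 3 higher and 3 lower in SCC6, and 2 higher and 1 lower in SCC25. Of all genes tested, 44.8%, 30.1% and 18.3% changed in SCC1, SCC6 and SCC25 (edgeR adjusted p under 0.05). The part of the squamous markers in the SCC1 rises of WNT10A and WNT4 given below was not tested. Of the 9 genes examined downstream of EGFR and ERK, 8 were lower with cetuximab in SCC1, 8 in SCC6 and 9 in SCC25, beside 22.1%, 14.6% and 9.5% of all genes. Treatments were split over flow cells: in SCC1 only the PBS library of day 5 shared a flow cell with the cetuximab libraries, in SCC25 only the cetuximab libraries of days 1 and 2 shared the flow cell of PBS, and in SCC6 a flow cell of their own held the treated libraries of days 4 and 5. Where a fit is given with a flow cell term, its values rest on those shared flow cells.

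Each line's 5 treated libraries were set against its 5 PBS libraries of the same span, to ask which of the 10 genes responded to EGFR blockade. Adjusted p-values come from edgeR's quasi-likelihood F test with Benjamini-Hochberg adjustment over all genes tested, and a change was called at an adjusted p under 0.05. In SCC1, 5 of the 7 genes that passed the filter on low counts changed, 3 higher and 2 lower, where 44.8% of all 17984 tested genes changed (22.7% higher and 22.1% lower). In SCC6, 6 of 9 changed, all higher, beside 30.1% of 17387 genes (15.6% higher and 14.6% lower). In SCC25, 6 of 9 changed, 5 higher and 1 lower, beside 18.3% of 19101 genes (8.8% higher and 9.5% lower). The 10 genes were chosen with earlier results of these data known, so these counts are a description and not a test of the pathway. WNT5A, SFRP1 and AXIN2 did not pass the filter in SCC1, and LEF1 did not pass it in SCC6 or SCC25. WNT4 in SCC1 and AXIN2 in SCC6 passed it through the treated libraries, where they are higher, so those calls rest on few PBS counts. In these bulk libraries, fewer cells that express a gene and less RNA per cell cannot be told apart.

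**Figure D1:**
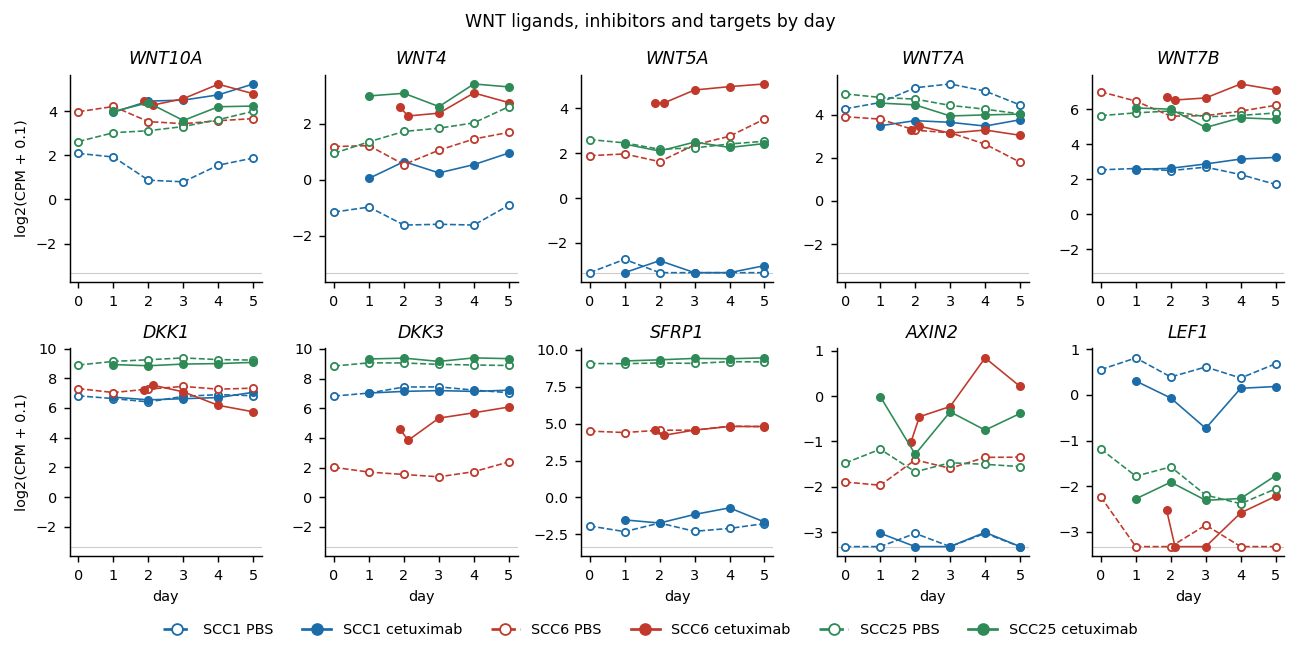
Level of each of the 10 genes, as log2(CPM + 0.1), against day of treatment, with open points and dashed lines for PBS and filled points and solid lines for cetuximab, 1 library per point. The grey line marks a CPM of 0, and the SCC6 libraries 2a and 2b are drawn side by side at day 2. WNT10A and WNT4 lie higher with cetuximab on every day compared, WNT5A and DKK3 rise far above PBS in SCC6, and WNT7A falls below PBS in SCC1.

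WNT10A, a ligand known for its role in teeth, hair and other epidermal appendages, was higher with cetuximab in all 3 lines, 9.30-fold in SCC1, 1.97-fold in SCC6 and 1.56-fold in SCC25. In SCC1 its CPM with PBS was 3.69, 1.73, 1.64, 2.83 and 3.57 on days 1 to 5, and with cetuximab it was 15.3, 21.9, 22.6, 26.6 and 37.5. Every treated SCC1 library was above every PBS library, and the level was highest on day 5. The fitted log2 fold change was 3.22 (SE 0.279, edgeR adjusted p = 3.51e-06), and the ratio between libraries of the same day ran from 4.16 on day 1 to 13.8 on day 3. In SCC6 the CPM with PBS was 18.5, 11.4, 10.7, 11.8 and 12.6, and with cetuximab it was 21.8 (2a), 19.2 (2b), 23.6, 37.3 and 27.6 on days 3 to 5. The SCC6 groups did not overlap either, with a log2 fold change of 0.98 (SE 0.199, edgeR adjusted p = 0.00361).

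WNT10A in SCC25 rose with time in PBS alone. Its CPM there was 6.06 on day 0 and 8.03, 8.56, 9.78, 12.2 and 15.9 on days 1 to 5, a slope of 0.26 per day on the log2 scale (SE 0.0275, edgeR adjusted p = 9.92e-05). With cetuximab it was 15.8, 20.8, 11.8, 18.3 and 18.7 CPM. The treated library was above PBS on each of the 5 days, but the groups overlapped, and the same-day ratio peaked on day 2 at 2.43 and was lowest on day 5 at 1.18. On the log2 scale the fold change was 0.65 (SE 0.194, edgeR adjusted p = 0.0373). The call was lost without the cetuximab library of day 2, 4 or 5 or the PBS library of day 1, 2, 3 or 4 (edgeR adjusted p = 0.0541 to 0.0957) and with a flow cell term (log2 fold change 0.75, adjusted p = 0.0880). The size of the WNT10A change differed between the 3 lines (edgeR line-by-treatment test, adjusted p = 2.89e-06).

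WNT4, a ligand with known roles in the development of the kidney and the female reproductive tract, was the other gene called higher in all 3 lines. In SCC1 its CPM was 0.407, 0.225, 0.231, 0.225 and 0.430 with PBS and 0.930, 1.46, 1.08, 1.35 and 1.83 with cetuximab on days 1 to 5. In SCC6 it was 2.21, 1.35, 1.97, 2.63 and 3.11 with PBS and 5.88 (2a), 4.73 (2b), 5.07, 8.42 and 6.61 with cetuximab. In SCC25 it was 2.45, 3.19, 3.46, 3.97 and 5.97 with PBS and 7.82, 8.35, 5.98, 10.5 and 9.80 with cetuximab. The groups did not overlap in any line, although the SCC25 treated library of day 3 lay only just above the PBS library of day 5. In SCC1 the log2 fold change was 2.14 (SE 0.263, edgeR adjusted p = 3.98e-05), from 10 to 20 counts per PBS library. It was 1.43 in SCC6 (SE 0.231, edgeR adjusted p = 0.000924). It was 1.15 in SCC25 (SE 0.22, edgeR adjusted p = 0.00435).

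The WNT4 call held in each line when any single library was left out and with a flow cell term (log2 fold changes 1.64, 1.19 and 1.09 in SCC1, SCC6 and SCC25). The difference in size between lines was not called (edgeR adjusted p = 0.12) and was called with the day as a block (adjusted p = 0.0415). Like WNT10A, WNT4 rose with time in SCC25 PBS, by 0.31 per day on the log2 scale (SE 0.0392, edgeR adjusted p = 0.000343), from 1.82 CPM on day 0. SCC1 libraries held 10 to 20 WNT4 counts with PBS and 41 to 76 with cetuximab. WNT4 passed the filter on low counts there through the treated libraries, so the SCC1 call and fold rest on few PBS counts.

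The promoters of WNT10A and WNT4 are shown because these 2 genes changed in every line. The windows are the 250 bases before the RefSeq gene start (GRCh38.p14), chr2:218880602-218880851 on the plus strand for WNT10A and chr1:22143098-22143347 on the minus strand for WNT4, each written 5′ to 3′ in the direction of the gene. In the files' build, GRCh37, the genes lie at chr2:219745574-219764303 and chr1:22443806-22470462. They were searched on both strands for the TCF/LEF motifs CTTTGAT and CTTTGTT, which would be in capitals.
WNT10A: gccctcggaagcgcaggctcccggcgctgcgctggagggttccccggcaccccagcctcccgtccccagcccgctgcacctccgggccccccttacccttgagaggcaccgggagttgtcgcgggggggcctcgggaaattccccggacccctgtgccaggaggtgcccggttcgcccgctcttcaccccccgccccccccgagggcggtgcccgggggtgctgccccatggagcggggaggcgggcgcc
WNT4: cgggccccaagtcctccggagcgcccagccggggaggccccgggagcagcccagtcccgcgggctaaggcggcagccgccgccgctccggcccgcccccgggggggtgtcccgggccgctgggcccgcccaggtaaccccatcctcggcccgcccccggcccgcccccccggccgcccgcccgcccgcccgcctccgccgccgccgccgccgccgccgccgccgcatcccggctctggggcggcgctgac
Neither window held either motif, and 6.6% of 35116 RefSeq promoter windows of this length held at least 1 match. Both are rich in G and C, at 77.6% in WNT10A and 86.8% in WNT4, with 24 and 40 CG dinucleotides.

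WNT5A, the best known ligand of the non-canonical branch (GRCh37 chr3:55499743-55524567, minus strand), rose in SCC6 alone among the lines in which it was tested. In SCC6 its CPM was 3.80, 2.98, 5.06, 6.64 and 11.4 with PBS and 18.8 (2a), 18.7 (2b), 27.97, 31.1 and 33.7 with cetuximab. The lowest treated library was above the highest PBS library, and the log2 fold change was 2.11 (SE 0.328, edgeR adjusted p = 0.000713). In SCC25 it was 5.39, 4.41, 4.60, 5.21 and 5.67 with PBS and 5.20, 4.17, 5.52, 4.67 and 5.28 with cetuximab, and the groups overlapped throughout. The SCC25 log2 fold change was -0.03 (SE 0.107, edgeR adjusted p = 0.861), and the line-by-treatment test, which includes SCC1, gave an adjusted p of 0.000126. In SCC1 the gene was near the limit of detection, with 2 counts over the 5 PBS libraries and 3 over the 5 cetuximab libraries.

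WNT5A was also higher on later days without drug in SCC6, with a slope of 0.32 per day on the log2 scale over PBS days 0 to 5 (SE 0.0691, edgeR adjusted p = 0.00931). That slope was 0.21 without the PBS library of day 5 (adjusted p = 0.111). In PBS its level in SCC6 and SCC25 did not differ beyond the spread (5.97 ± 3.31 and 5.06 ± 0.534 CPM, SD, n = 5, edgeR adjusted p = 0.462). The summed counts with PBS were 659-fold higher in SCC6 than in SCC1 after scaling for depth, with a 95% interval of 182 to 5450 that covers counting error only.

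WNT7A, a ligand that can signal through β-catenin in epithelia (GRCh37 chr3:13857755-13921568, minus strand), moved the other way from WNT10A in SCC1. Its CPM there was 23.5, 37.8, 42.7, 34.0 and 21.7 with PBS and 11.1, 13.1, 12.4, 11.0 and 13.5 with cetuximab. The 5 treated libraries lay close together below all PBS libraries, and the log2 fold change was -1.38 (SE 0.168, edgeR adjusted p = 3.76e-05). With the flow cell as a covariate, which leaves 1 PBS library for the contrast, it was -0.82 (adjusted p = 0.0202).

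WNT7A in SCC6 fell over the days with PBS, from 14.9 CPM on day 0 to 13.7, 9.60, 8.84, 6.11 and 3.37 on days 1 to 5, a slope of -0.41 per day on the log2 scale (SE 0.0521, edgeR adjusted p = 0.00131). With cetuximab it was 9.62 (2a), 10.9 (2b), 8.73, 9.66 and 8.15 CPM, a narrower range that lay inside that of PBS. The treated libraries of days 4 and 5 were above PBS of the same days, and the log2 fold change over all days was 0.16 (SE 0.289, edgeR adjusted p = 0.723). In SCC25 it also fell with PBS, from 31.0 CPM on day 0 to 27.7, 26.2, 21.4, 19.0 and 16.3, at -0.19 per day (SE 0.0209, edgeR adjusted p = 0.000149). The treated SCC25 libraries were at 23.1, 21.8, 15.2, 15.8 and 16.2 CPM, lower than PBS on each of the 5 days. That difference was -0.27 (SE 0.164, edgeR adjusted p = 0.279), was called with the day as a block (-0.26, adjusted p = 0.0288), and was 0.02 with a flow cell term (adjusted p = 0.956). The WNT7A change differed between lines (edgeR adjusted p = 0.00153).

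WNT7B, the close paralogue of WNT7A (GRCh37 chr22:46316246-46373042, minus strand), rose in SCC6 and, less firmly, in SCC1. In SCC6 its CPM was 87.8, 48.3, 49.3, 59.0 and 74.3 with PBS and 105 (2a), 91.6 (2b), 99.5, 173 and 136 with cetuximab. The groups did not overlap, and the log2 fold change was 0.91 (SE 0.208, edgeR adjusted p = 0.00685). The PBS library of day 0 stood at 127 CPM, above 3 of the treated libraries, and with it in the PBS group the adjusted p was 0.0668. Without the treated libraries of days 4 and 5 the adjusted p was 0.0546.

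WNT7B in SCC1 was at 6.03, 5.55, 6.36, 4.72 and 3.16 CPM with PBS and 5.79, 6.08, 7.23, 8.80 and 9.41 with cetuximab. The groups overlapped on the early days and were farthest apart on day 5. Its log2 fold change was 0.54 (SE 0.193, edgeR adjusted p = 0.0363). With a flow cell term, which leaves 1 PBS library for the contrast, it was 1.25 (adjusted p = 0.0102). It was not called with the day as a block (0.55, adjusted p = 0.0795), nor without the cetuximab library of day 3, 4 or 5 or the PBS library of day 2, 4 or 5 (adjusted p = 0.0546 to 0.097). In SCC25 the CPM was 55.1, 59.4, 47.1, 49.8 and 54.8 with PBS and 66.9, 63.8, 30.9, 45.3 and 42.8 with cetuximab. The treated SCC25 libraries of days 1 and 2, which shared the flow cell of PBS, were above every PBS library, and those of days 3 to 5, on another flow cell, were below every PBS library. The SCC25 log2 fold change was -0.10 (SE 0.176, edgeR adjusted p = 0.751), and 0.30 with a flow cell term (adjusted p = 0.191). The part of the flow cell in this split was not tested. The WNT7B change differed between lines (edgeR adjusted p = 0.0255), a call lost with a flow cell term (0.0897) or without the cetuximab library of SCC25 day 3 or of SCC6 day 4 or 5 or the SCC6 PBS library of day 2 (0.0502 to 0.0638).

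**Figure D2:**
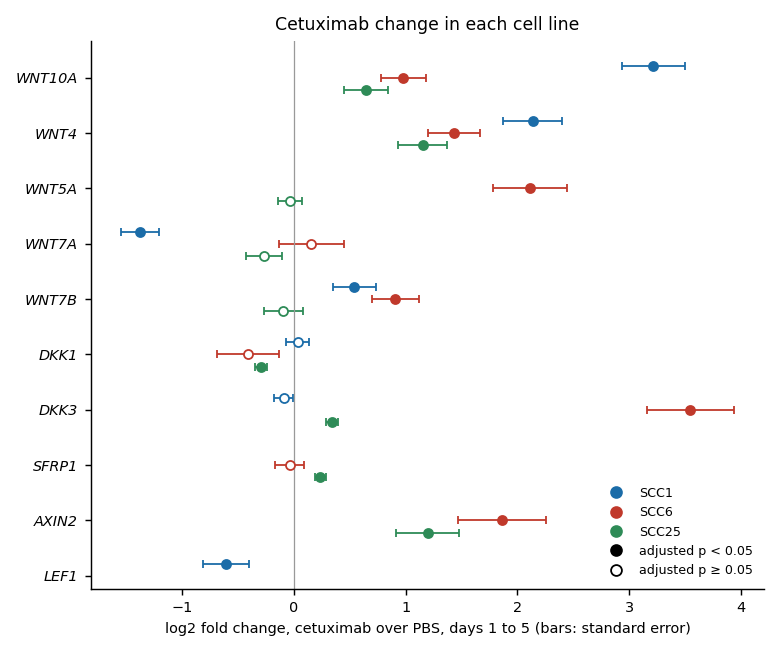
The log2 fold change of each gene with cetuximab over PBS in each line, with bars of 1 standard error, filled where the edgeR adjusted p was under 0.05. Genes that did not pass the filter on low counts in a line have no point there. WNT10A and WNT4 are right of 0 in every line, DKK3 is at 3.55 in SCC6 and near 0 in SCC1, and WNT7A and LEF1 are left of 0 in SCC1.

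Among the inhibitors, DKK1, which binds the LRP co-receptors and blocks canonical signalling (GRCh37 chr10:54074041-54077802, plus strand), had the highest level per transcript length of the 10 genes in every group. With PBS it was 58.3 ± 7.49 CPM per kb in SCC1, 85.9 ± 8.68 in SCC6 and 336 ± 19.7 in SCC25 (SD, n = 5), and all 3 pairs of lines differed (edgeR adjusted p at most 2.58e-05). The length used is the longest annotated transcript, 1805 bases for DKK1 and 9549 for DKK3, which has 17 transcripts. DKK3 had more CPM than DKK1 in SCC1 with PBS (152 and 105) and in treated SCC25 (641 and 496). There the order of these genes rests on the length used. In SCC25 the CPM of DKK1 was 561, 606, 660, 610 and 597 with PBS and 484, 458, 495, 507 and 537 with cetuximab. Every treated library was below every PBS library of days 1 to 5, and the log2 fold change was small, -0.30 (SE 0.0557, edgeR adjusted p = 0.00408). The PBS library of day 0, at 474 CPM, was inside the treated range, and with it the adjusted p was 0.0513.

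DKK1 in SCC6 was at 131, 155, 175, 154 and 161 CPM with PBS and at 145 (2a), 186 (2b), 136, 72.3 and 53.4 CPM with cetuximab. The treated libraries of days 4 and 5 were low and the others were not, and these were also the libraries alone on their flow cell, so day and flow cell cannot be told apart here. The log2 fold change was -0.41 (SE 0.278, edgeR adjusted p = 0.294). It was -0.71 with the day as a block (adjusted p = 0.0447), -0.86 without both libraries labelled day 2 (adjusted p = 0.0240) and -0.07 with a flow cell term (adjusted p = 0.735). In SCC1 DKK1 stayed between 85.0 and 133 CPM in both arms, with a log2 fold change of 0.03 (SE 0.105, edgeR adjusted p = 0.822). The difference in change between lines was not called (edgeR adjusted p = 0.45).

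The DKK1 promoter is shown because, of the 6 genes with a RefSeq promoter window (WNT5A, WNT7A, WNT10A, WNT4, DKK1 and LEF1), it was the only window with a TCF/LEF motif match, and it was chosen for that. It covers chr10:52314031-52314280 on the plus strand of GRCh38.p14, and the capitals mark CTTTGTT at bases -76 to -70 before the start.
DKK1: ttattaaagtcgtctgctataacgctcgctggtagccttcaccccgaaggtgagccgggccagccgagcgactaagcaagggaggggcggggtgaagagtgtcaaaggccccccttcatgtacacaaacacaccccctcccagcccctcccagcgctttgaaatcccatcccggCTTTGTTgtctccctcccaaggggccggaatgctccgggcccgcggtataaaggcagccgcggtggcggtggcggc
CTTTGTT was in 4.5% and CTTTGAT in 2.26% of all 35116 windows, and a match is a description of the letters and not of binding.

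DKK3, a divergent member of the Dickkopf family that is often silenced in carcinomas, showed the largest fold of the 10 genes in SCC6, 11.7-fold. Its CPM in SCC6 was 3.15, 2.81, 2.51, 3.21 and 5.13 with PBS and 24.3 (2a), 14.3 (2b), 40.4, 51.9 and 67.8 with cetuximab. Every treated library was above every PBS library, and the highest was that of day 5. As a log2 fold change this was 3.55 (SE 0.39, edgeR adjusted p = 7.85e-05), and 2.93 with a flow cell term (adjusted p = 7.4e-05). Even with cetuximab, SCC6 stayed below the PBS level of the other lines, which was 152 ± 21.0 CPM in SCC1 and 505 ± 28.2 in SCC25 (SD, n = 5).

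DKK3 in SCC25 rose from a high level, from 536, 532, 498, 484 and 473 CPM with PBS to 642, 667, 572, 674 and 651 with cetuximab. These groups did not overlap, with a log2 fold change of 0.34 (SE 0.0579, edgeR adjusted p = 0.00234). In SCC1 it was 130, 173, 174, 150 and 133 CPM with PBS and 130, 141, 146, 141 and 149 with cetuximab, and the groups overlapped (log2 fold change -0.09, SE 0.0834, edgeR adjusted p = 0.398). The change differed between lines (edgeR adjusted p = 7.05e-09). DKK3 (GRCh37 chr11:11977754-12031316, minus strand) overlaps USP47 on the opposite strand by 5681 bases, and the strand setting of the counting is not given in the sources used here.

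SFRP1, which binds WNT ligands outside the cell and keeps them from Frizzled receptors, separated the lines more widely than it responded to drug. With PBS it was 0.147 ± 0.0479 CPM in SCC1, 24.7 ± 3.11 in SCC6 and 555 ± 23.1 in SCC25 (SD, n = 5). SCC6 and SCC25 differed (edgeR adjusted p = 3.56e-16). SFRP1 entered the comparison of lines through SCC6 and SCC25, where it is high, so its low SCC1 level is a description. In SCC25 it was 530, 548, 537, 582 and 575 CPM with PBS and 602, 635, 678, 668 and 695 with cetuximab. All treated libraries were above all PBS libraries, by a log2 fold change of 0.24 (SE 0.0511, edgeR adjusted p = 0.00867). With the flow cell as a covariate it was 0.16 (adjusted p = 0.120). In SCC6 the groups overlapped, at 20.9, 23.3, 23.4, 28.3 and 27.5 CPM with PBS and 24.0 (2a), 18.3 (2b), 23.5, 27.8 and 27.9 with cetuximab (log2 fold change -0.04, SE 0.132, edgeR adjusted p = 0.854). In SCC1 the libraries held 4 to 9 counts with PBS and 9 to 21 with cetuximab, and the change with drug was not tested within that line.

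The line-by-treatment test of SFRP1, which rests on few counts in SCC1, gave an edgeR adjusted p of 0.0263, and it was not called with a flow cell term (0.102), without the filter on low counts (0.0624), or without the SCC1 cetuximab library of day 3 or 4, the SCC1 PBS library of day 1, 3 or 4, or the SCC6 PBS library of day 4 (0.0509 to 0.0812). Some genes that mark fibroblasts were also higher with cetuximab, and others were not. Over the list of 9, summed CPM ran from 3.44 to 5.33 with PBS and from 10.1 to 116 with cetuximab in SCC6, where 2 of 3 tested genes rose. DKK3 and WNT5A rose in SCC6 too, and SFRP1 was not called. In SCC25 the sum ran from 178 to 228 and from 292 to 459, and 5 of 9 rose and 1 fell, where DKK3 and SFRP1 rose and WNT5A was not called. In SCC1 it ran from 51.4 to 72.9 and from 96.4 to 221, with all 5 tested genes higher, while DKK3 was not called and the others were not tested. Over all genes, 22.7%, 15.6% and 8.8% were called higher in SCC1, SCC6 and SCC25. LUM, PDGFRA and THY1 averaged under 1 CPM in both SCC1 and SCC6, and no marker of the list was at 0 in all libraries of a group. COL1A1 in SCC6 averaged 3.00 CPM with PBS and 40.0 with cetuximab, while COL1A2, LUM, DCN, PDGFRA and THY1 stayed under 1 CPM. THY1 and PDGFRA had lower means with cetuximab in SCC25, 2.51 to 1.59 and 1.2 to 0.75 CPM. The part of these genes in the changes of DKK3, WNT5A and SFRP1 was not tested.

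AXIN2, a scaffold of the destruction complex and a widely used readout of β-catenin signalling, was expressed at a low level in every group. In SCC6 its CPM was 0.156, 0.277, 0.232, 0.292 and 0.293 with PBS and 0.396 (2a), 0.630 (2b), 0.754, 1.70 and 1.06 with cetuximab. The groups did not overlap, and the log2 fold change was 1.86 (SE 0.391, edgeR adjusted p = 0.00428), from 5 to 11 counts per PBS library. With the flow cell as a covariate it was 1.08 (adjusted p = 0.0292). Over the SCC6 PBS libraries alone, AXIN2 did not pass the filter on low counts. It entered this test through the treated libraries, which held 16 to 127 counts, so the SCC6 call and fold rest on few PBS counts. In SCC25 it was 0.344, 0.214, 0.261, 0.252 and 0.241 CPM with PBS and 0.895, 0.311, 0.687, 0.495 and 0.668 with cetuximab. The treated library was higher on each day, and only that of day 2 fell within the PBS range. The SCC25 log2 fold change was 1.20 (SE 0.28, edgeR adjusted p = 0.0128), and 1.18 with a flow cell term (adjusted p = 0.0726). SCC25 libraries held 10 to 18 counts with PBS and 15 to 42 with cetuximab, so this call and fold rest on few counts as well.

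In SCC1, AXIN2 had 2 counts over the 5 libraries of each arm, too few to compare. A difference in its change between lines was not called (edgeR adjusted p = 0.42), and its PBS levels in SCC6 and SCC25 did not differ beyond their spread (0.250 ± 0.0582 and 0.263 ± 0.0491 CPM, SD, n = 5, adjusted p = 0.840). The annotated gene (GRCh37 chr17:63524681-63557766, minus strand) shares 23547 bases with ENSG00000266076 on the same strand, so that reads could be split between them.

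LEF1, a DNA-binding partner of β-catenin and itself a target of the pathway, was expressed mainly in SCC1. There its CPM was 1.65, 1.21, 1.43, 1.19 and 1.51 with PBS and 1.13, 0.853, 0.502, 1.01 and 1.04 with cetuximab. All treated libraries were below all PBS libraries, and the log2 fold change was -0.61 (SE 0.205, edgeR adjusted p = 0.0283). The call was lost without the cetuximab library of day 2 or the PBS library of day 1 or 3 (adjusted p = 0.0507 to 0.0582) and with a flow cell term (-0.71, adjusted p = 0.157). With PBS, SCC25 held 4 to 11 counts per library and SCC6 1 count over 5 libraries, so the change there could not be seen at this depth. The line-by-treatment test, which LEF1 entered through SCC1 alone and from which nothing is read for the other lines, gave an edgeR adjusted p of 0.023. It gave 0.0691 with the day as a block, 0.515 with a flow cell term, and 0.0524 to 0.0876 without the SCC6 cetuximab library of day 5 or the SCC6 PBS library of day 2 or 4.

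A LEF1 promoter window, chr4:108166302-108166551 on the minus strand of GRCh38.p14 (gene at GRCh37 chr4:108968701-109090112), is shown for the nuclear effector among the 10 genes, beside the GC-rich windows of WNT10A and WNT4. LEF1 has 21 annotated transcripts, and only the first promoter window listed for it was taken. Other starts of the gene were not examined, so the letters describe this window, which need not be that of the main start.
LEF1: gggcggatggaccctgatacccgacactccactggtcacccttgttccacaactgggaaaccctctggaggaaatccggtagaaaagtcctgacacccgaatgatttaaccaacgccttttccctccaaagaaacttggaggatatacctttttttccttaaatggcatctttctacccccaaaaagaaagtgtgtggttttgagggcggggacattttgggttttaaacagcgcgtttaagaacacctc
It held no TCF/LEF motif match and 47.6% G and C, with 8 CG dinucleotides. LEF1-AS1 overlaps the gene on the opposite strand by 1432 bases.

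Untreated lines differed in most of these genes, as they did across the transcriptome. WNT5A, SFRP1, AXIN2 and LEF1 passed the filter on low counts in this comparison through the lines where they are high, so the counts of genes are a description. Between SCC1 and SCC6, 10 of 10 differed in PBS, beside 69.1% of 19744 tested genes. Between SCC1 and SCC25, 9 of 10 differed, beside 68.4%, and the exception was WNT7A (32.0 ± 9.10 and 22.1 ± 4.82 CPM, SD, n = 5, edgeR adjusted p = 0.0976). Between SCC6 and SCC25, 6 of 10 differed, beside 72.1%, and WNT5A, WNT7B, WNT10A and AXIN2 did not. Lines were sequenced for the most part on separate flow cells, so line and flow cell cannot be fully told apart.

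The order of the PBS levels was not the same for each gene. WNT7A was lowest in SCC6 (8.33 ± 3.90 CPM), whereas WNT7B was lowest in SCC1, at 5.16 ± 1.28 CPM against 63.7 ± 17.0 in SCC6 and 53.3 ± 4.82 in SCC25. WNT10A was lowest in SCC1, at 2.69 ± 0.977 CPM against 13.0 ± 3.13 in SCC6 and 10.9 ± 3.21 in SCC25. With cetuximab, SCC1 reached 24.8 ± 8.20 CPM of WNT10A, near the 25.9 ± 7.04 of treated SCC6. WNT4 ran upward from SCC1 (0.304 ± 0.105 CPM) to SCC6 (2.25 ± 0.667) and SCC25 (3.81 ± 1.33), though SCC6 and SCC25 did not differ without the SCC25 PBS library of day 5 (edgeR adjusted p = 0.0509).

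Per kilobase of the longest transcript, the ligand with the highest level in PBS was WNT7A in SCC1 (8.01 ± 2.28 CPM per kb) and WNT7B in SCC6 (16.1 ± 4.31) and SCC25 (13.5 ± 1.22). With cetuximab the highest in SCC1 was WNT10A, at 12.1 ± 3.99 CPM per kb against 3.06 ± 0.283 for WNT7A. AXIN2 was among the 2 lowest of the 10 genes in every group, at 0.00211 to 0.213 CPM per kb on average.

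Time in culture without drug was compared over PBS days 0 to 5. None of 7 tested genes had a called slope in SCC1 (edgeR, with 1 gene, WNT7B, at an unadjusted p under 0.05, and none by DESeq2), beside 2.49% of all genes. In SCC6, 2 of 8 did, WNT5A and WNT7A, beside 32.7%. In SCC25, 3 of 10 did, WNT7A, WNT10A and WNT4, beside 10.7%.

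Across lines, the change with cetuximab differed for 7 of the 10 genes, beside 26.1% of 21414 tested genes, and WNT4, DKK1 and AXIN2 were the genes without such a call. Of the 7, WNT5A and SFRP1 had too few counts to be tested in SCC1 alone, and LEF1 in SCC6 and SCC25, and they entered this test through the lines where they are high, so the count is a description. With the flow cell as a covariate 4 of the 10 were called. Of the 17 calls within lines, 13 held with a flow cell term, and those lost were LEF1 in SCC1 and WNT10A, SFRP1 and AXIN2 in SCC25.

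**Figure D3:**
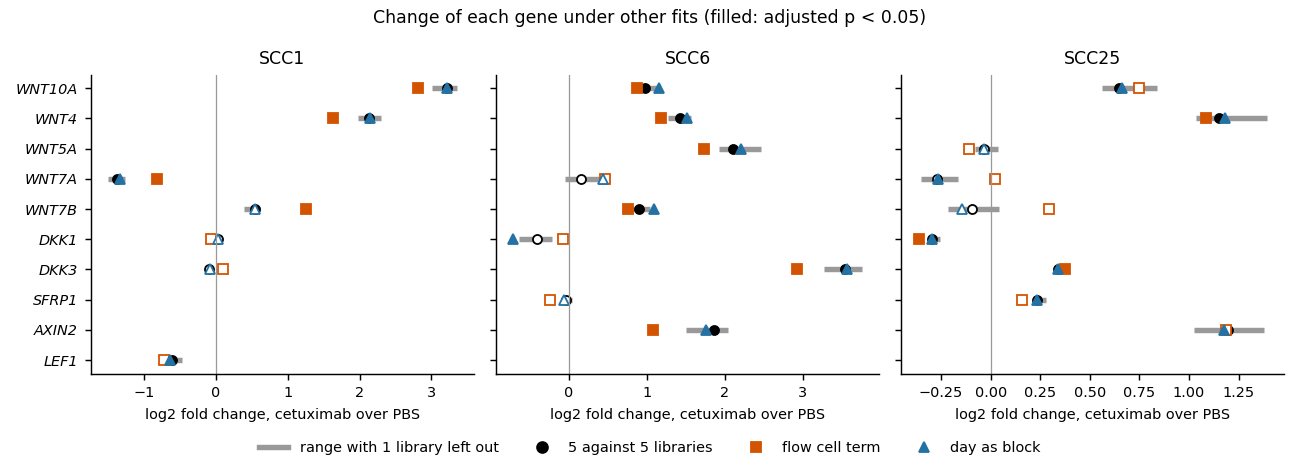
The log2 fold change of each gene in each line in the fit of 5 against 5 libraries (black circles), with a flow cell term (orange squares) and with the day as a block (blue triangles), filled where the adjusted p was under 0.05, over a grey bar for the range when each library was left out in turn. The WNT10A and WNT4 symbols stay right of 0 in all 3 lines, the SCC1 WNT7A change is smaller with the flow cell term (-0.82 against -1.38), and the SCC25 symbols of WNT10A, SFRP1 and AXIN2 are open with it.

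The rest of the pathway was read from lists of ligands, secretion factors, receptors, extracellular inhibitors, cytoplasmic and nuclear components and feedback targets, 79 genes besides the 10. In SCC1, 48 of these were tested, and 19 rose and 7 fell, with a median log2 fold change of 0.16 beside 0.02 over all genes. In SCC6, 54 were tested, and 14 rose and 2 fell, with a median of 0.20 beside 0.0039 over all genes. In SCC25, 60 were tested, and 5 rose and 4 fell, with a median of 0.0092 beside 0.0062. The shares called, 54.2%, 29.6% and 15%, lay near those of all genes in SCC6 and SCC25. These lists too were chosen with earlier results of these data known. Within a line, the changes of single list genes given below are from the fit of 5 against 5 libraries, without the other fits. With a flow cell term, the pathway genes called, the 10 included, went from 31 to 20 in SCC1 and from 15 to 8 in SCC25.

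Among receptors, FZD1, a Frizzled receptor, rose in each line, from 4.74 ± 0.481 to 8.44 ± 0.896 CPM in SCC1, from 3.07 ± 0.338 to 8.66 ± 2.95 in SCC6 and from 11.5 ± 0.894 to 17.4 ± 2.08 in SCC25 (SD, n = 5, edgeR adjusted p = 4.13e-05, 0.000534 and 0.00174). FZD7 rose in SCC1 and SCC6 (log2 fold changes 0.87 and 0.88), and the R-spondin receptor LGR4 rose in SCC1 and SCC25 (0.45 and 0.34). FZD2 was called higher in SCC6 (1.74) and FZD5 in SCC25 (0.29), and the change differed between lines for FZD2 (edgeR adjusted p = 0.0011) and was not called to differ for FZD5 (0.285). FZD10 fell in SCC25, with a log2 fold change of -0.54 (SE 0.142, edgeR adjusted p = 0.022). Counted by list, 6 of 14 tested receptors rose in SCC1 and 5 of 16 in SCC6, and in SCC25 3 of 18 rose and 1 fell, shares called of 42.9%, 31.2% and 22.2% beside 44.8%, 30.1% and 18.3% of all genes.

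Among ligands outside the 10, WNT6 was called higher in all 3 lines (edgeR adjusted p = 4.57e-05, 0.00047 and 0.0231 in SCC1, SCC6 and SCC25). Its CPM went from 0.0965 ± 0.0511 to 0.968 ± 0.447 in SCC1, from 0.183 ± 0.102 to 5.43 ± 4.76 in SCC6 and from 1.35 ± 0.519 to 3.19 ± 1.39 in SCC25. In SCC1 and SCC6 it passed the filter on low counts through the treated libraries. The PBS libraries held 2 to 7 and 2 to 9 counts there, so these calls and folds rest on few PBS counts. WNT5B, a relative of WNT5A, rose in SCC6 with a log2 fold change of 1.86 (SE 0.312) and fell in SCC1 with -1.35 (SE 0.309), and its change differed between lines (edgeR adjusted p = 1.65e-06). In SCC1, WNT5B passed the filter through the PBS libraries, with 21 to 49 counts there and 6 to 17 with cetuximab. WNT2B rose in SCC1 (0.46) and SCC25 (0.55). WNT3 fell in SCC1, with a log2 fold change of -0.41 (SE 0.115, edgeR adjusted p = 0.011). KREMEN1, a receptor through which DKK1 removes LRP co-receptors from the surface, rose in SCC1 from 23.4 ± 3.72 to 45.0 ± 1.70 CPM and in SCC6 from 13.6 ± 3.41 to 35.2 ± 6.62 (edgeR adjusted p = 9.04e-06 and 0.000272). Its relative KREMEN2 rose in SCC1 (log2 fold change 1.10).

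Inside the cell, 3 of 13 tested cytoplasmic components rose and 4 fell in SCC1, 2 rose in SCC6 with none lower, and 1 fell in SCC25 with none higher. These are 53.8%, 15.4% and 7.69% called, beside the 44.8%, 30.1% and 18.3% of all genes. CTNNB1, which encodes β-catenin, fell from 418 ± 25.8 to 326 ± 25.5 CPM in SCC1 and rose from 310 ± 15.6 to 372 ± 32.2 in SCC6 (edgeR adjusted p = 0.000627 and 0.0498), a change that differed between lines (2.3e-05). DVL1, which relays the signal from Frizzled receptors, fell in SCC1 with a log2 fold change of -0.64 (SE 0.138). In the same line the kinases GSK3A and CSNK1A1 fell by 0.24 and 0.12 on the log2 scale (edgeR adjusted p = 0.00371 and 0.0477). TCF7, a DNA-binding partner of β-catenin like LEF1, fell in SCC1 from 4.78 ± 0.494 to 1.53 ± 0.425 CPM and in SCC25 from 19.7 ± 1.76 to 15.1 ± 2.33 (edgeR adjusted p = 1.31e-05 and 0.0303). TCF7L1, the family member known chiefly as a repressor, rose in SCC6 from 3.04 ± 0.705 to 37.5 ± 18.1 CPM and in SCC1 from 15.6 ± 1.99 to 22.5 ± 2.36 (edgeR adjusted p = 3.68e-05 and 0.000946). AXIN1, the constitutive relative of AXIN2, fell in SCC25, with a log2 fold change of -0.40 (SE 0.127, edgeR adjusted p = 0.0468).

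Feedback targets other than AXIN2 moved in both directions. RNF43, a ligase that removes Frizzled receptors, rose in SCC1 from 6.55 ± 1.39 to 13.1 ± 1.29 CPM and in SCC6 from 0.824 ± 0.206 to 2.05 ± 0.292 (edgeR adjusted p = 7.13e-05 and 0.000823), and in SCC25 its log2 fold change was -0.01 (SE 0.0586). TNFRSF19 fell in SCC25 from 14.4 ± 0.93 to 9.42 ± 0.217 CPM and rose in SCC6 from 12.9 ± 1.51 to 21.0 ± 2.13 (edgeR adjusted p = 0.00019 and 0.00132). With AXIN2 included, 1 of 2 tested feedback targets rose in SCC1, 3 rose and 1 fell of 6 in SCC6, and 1 rose and 1 fell of 7 in SCC25. The shares called were 50%, 66.7% and 28.6%, over few genes, beside 44.8%, 30.1% and 18.3% of all genes.

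**Figure D4:**
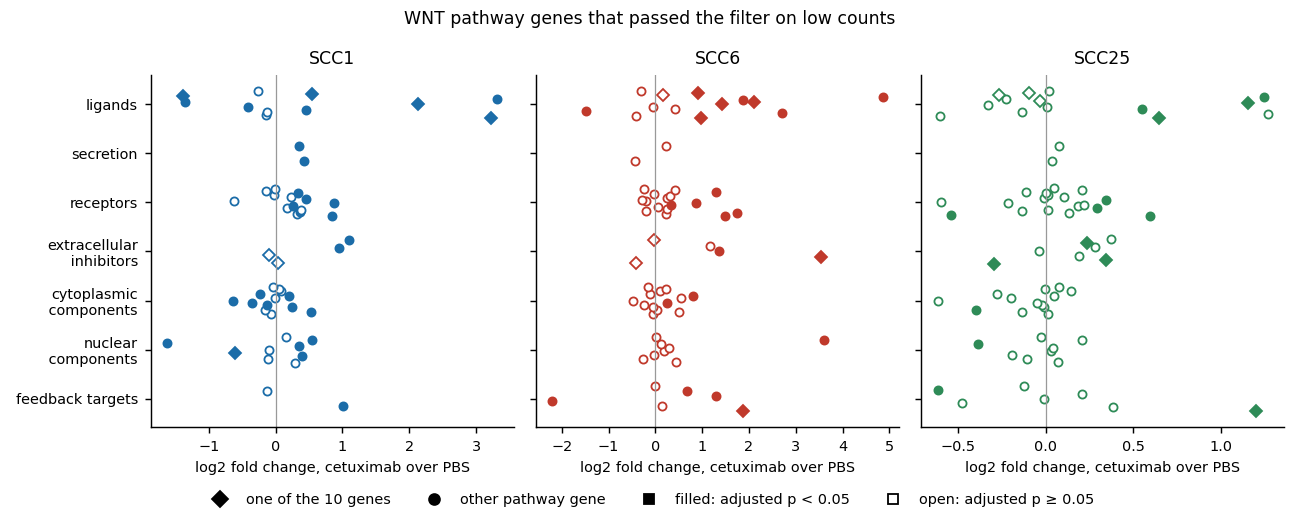
The log2 fold change with cetuximab over PBS of the WNT pathway genes that passed the filter on low counts, by list, in SCC1, SCC6 and SCC25, each with its own horizontal scale. Diamonds are the 10 genes and circles the other pathway genes, filled where the edgeR adjusted p was under 0.05. Filled ligand symbols lie on both sides of 0 in SCC1, and in SCC25 filled ligand symbols lie only to the right.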

How the data were processed

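RNA was sequenced from poly(A)-selected libraries made with a stranded kit. Per the labels and the study's methods, the authors estimated transcript abundance with Salmon 0.8.2 and exported gene-level estimated counts with tximport. The submitters' processing notes name GRCh37 and hg19, with no annotation or strand setting given in the sources used here. The deposited table holds estimated counts, not normalized, for 56470 symbols in 33 libraries, which were rounded to whole numbers.

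The fits used edgeR 4.0.16 in R 4.3.3 (glmQLFit and glmQLFTest, two-sided, filterByExpr, TMM), with Benjamini-Hochberg adjustment over all genes tested and a threshold of 0.05. Each line was fitted on its own (5 PBS and 5 cetuximab libraries), the line-by-treatment terms over 30 libraries, PBS levels over 15 libraries and slopes over 6 PBS libraries of a line. Alternatives were DESeq2 1.42.0, DESeq2 size factors, total-count scaling, no filter on low counts, the day as a block, a flow cell term, PBS day 0 added and each library left out. 2 alternatives that leave out pairs of SCC6 libraries were chosen after seeing the data. The fits were tested on simulated counts.

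The day labels mark a shared collection day and pair the libraries. Deviations from the group mean correlated between same-day libraries at 0.107 to 0.383 in SCC1, 0.219 to 0.58 in SCC25 and -0.174 to 0.573 in SCC6. Libraries of different days reached -0.413 to 0.355, -0.614 to 0.634 and -0.661 to 0.698, so the pairing rests on the labels. The SCC6 libraries 2a and 2b differed by more than counting noise (chi-square per gene 23.85, beside 19.99 to 175.1 in the other pairs of the group) and were counted as 2.

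All 10 genes are named in every comparison. Of the other pathway genes, the 6 largest rises and falls called in a line at a mean of at least 1 CPM are named, and values of these genes in the other lines were added after they were seen. The members and lists were chosen with earlier results of these data known. Gene positions and transcript lengths are from the GENCODE annotation lifted to GRCh37, and promoters from RefSeq (GRCh38.p14). Only the first promoter window listed for a gene was taken. WNT7B, DKK3, SFRP1 and AXIN2 had no promoter entry. The depth of each library sets the precision, and intervals cover counting error only.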

Additional observations from a re-analysis of the deposited data

Results flagged for a closer look

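In 2 of 50 groups of 5 libraries, 1 library stood farther from the rest than Dixon's critical value of 0.71 allows, where chance gives about 1 group in 20. The SCC6 PBS library of day 1 held 18.5 CPM of WNT10A, beside 10.7 to 12.6 in the other 4, with a gap of 0.758 of the range. It shared no flow cell with the other SCC6 libraries of days 1 to 5, and the part of that in its level was not tested. The SCC6 PBS library of day 5 held 5.13 CPM of DKK3, beside 2.51 to 3.21 in the others, with a gap of 0.731 of the range.

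The change with cetuximab differed between the 3 lines for 7 genes by edgeR's quasi-likelihood test of the line-by-treatment terms. WNT5A, SFRP1 and LEF1 passed the filter on low counts there through the lines where they are high, with 2 WNT5A counts over the SCC1 PBS libraries and 1 LEF1 count over those of SCC6, so their values rest on few counts in the other lines. The adjusted p was 7.05e-09 for DKK3, 2.89e-06 for WNT10A and 0.000126 for WNT5A. It was 0.00153 for WNT7A, 0.023 for LEF1, 0.0255 for WNT7B and 0.0263 for SFRP1. The calls of DKK3, WNT10A, WNT5A and WNT7A held under every alternative run, the weakest adjusted p being 1.29e-06, 0.0144, 0.00493 and 0.0461. Those of LEF1, WNT7B and SFRP1 did not, with adjusted p up to 0.515, 0.0897 and 0.102.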

How the results depend on the processing

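Of 1648 results of single genes and alternatives, 1593 kept their direction where called and their side of the threshold, 44 lost a call, 11 gained a call and none of the called values changed sign. The 17 calls of the 10 genes within lines were all kept by DESeq2, by DESeq2 size factors, by total-count scaling and without the filter on low counts, 15 with PBS day 0 added, 16 with the day as a replicate block and 13 with a flow cell term. With that term the genes called numbered 4197 in SCC1, 1417 in SCC25 and 3080 for the difference between lines. It left 3 of the 10 genes called in SCC25 and 4 for the difference between lines, and 20 pathway genes called in SCC1 (31 without it) and 8 in SCC25 (15 without it). With the day as a block, 7961 genes were called in SCC6, 9001 for the difference between lines, and 25 pathway genes in SCC25. The cause of these shifts was not tested. The block changed no call of the 10 genes other than those given beside their results. Without the SCC6 cetuximab libraries of days 4 and 5, 2868 genes were called in SCC6, from fewer libraries.

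Leaving out 1 library at a time, 2193 to 4006 genes were called in SCC25, where the count fell by over 1.5 times without the cetuximab library of day 4 (the lowest) or 5 or the PBS library of day 2 or 3. The PBS slopes were less stable. In SCC1 they numbered 24 (without day 1) to 1575 (without day 5), beside 474, and leaving out any of the 6 days moved the count by over 1.5 times, with 1485 by DESeq2. In SCC25 they numbered 1090 (without day 0) to 2279 and in SCC6 1892 (without day 0) to 7137, with falls of over 1.5 times without day 0, 1 or 5 in both lines. In SCC6, 2 to 4 of the 10 genes had a called slope, with WNT7B and WNT10A added without the PBS library of day 2 (adjusted p = 0.0228 and 0.0488). Scaling to total counts moved the split of called genes in SCC25 from 1681 higher and 1815 lower to 2259 higher and 1219 lower. Genes with few counts, such as AXIN2 and WNT4 in SCC1 or LEF1 in SCC6, limit what a change could show there.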
